A study of Mus musculus with 9 samples.

Results

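The 10 genes described here decide what a cell does with pyruvate and how it moves glucose and lactate across its membrane: Pdk1, Pdk2, Pdk3, Pdk4, Pdha1, Pdp1, Slc2a1, Slc2a3, Slc16a1 and Slc16a3. They form a list of gene symbols, looked up among the 54532 genes of the deposited count table. Messenger RNA was measured in 9 libraries of ST2 cells, a clonal mouse line of bone marrow stroma that the labels call a mesenchymal stem cell, of WT genotype. At 72 h, 3 libraries came from cells kept with vehicle, 3 from cells given rhWnt3a (recombinant human Wnt3a) at 50 ng/ml, and 3 from cells that the sample titles name rhWnt3aOSMI. The titles were followed, so this last group is described as rhWnt3a with OSMI, an inhibitor of the O-GlcNAc transferase OGT, although its treatment label names OSMI at 20 µM alone and its dose of rhWnt3a is not on its labels. No group is labelled as OSMI without rhWnt3a in its title, so the values with OSMI are read against rhWnt3a and against vehicle only. All values come from 1 cell line, and how the cultures behind the replicates were separated is not on the labels, so the p-values measure the spread between these libraries.

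Pyruvate, the end product of glycolysis, is either reduced to lactate in the cytosol or imported into mitochondria and oxidised to acetyl-CoA by the pyruvate dehydrogenase complex. Pyruvate dehydrogenase kinases (Pdk1 to Pdk4) phosphorylate the E1 alpha subunit of that complex (Pdha1) and switch it off, and a phosphatase (Pdp1) removes the phosphate and switches it on again. Facilitative transporters (Slc2a1, which encodes GLUT1, and Slc2a3, which encodes GLUT3) bring glucose in, and proton-coupled monocarboxylate transporters (Slc16a1, which encodes MCT1, and Slc16a3, which encodes MCT4) carry lactate and pyruvate. Cells that form bone are known for releasing lactate from glucose while oxygen is present, and these genes sit at the branch point of that route.

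The libraries held 16135898 to 17583945 counted reads, and no gene took more than 4.22% of a library. At this depth 3 counts, taken as the floor of detection, correspond to 0.171 to 0.186 CPM, the usual unit of counts scaled to the size of the library. Stromal markers were abundant, with 8 of 9 tested and a summed level of 8554 to 27210 CPM, although 2 of them were called lower with rhWnt3a, 2 when OSMI was added and 4 with rhWnt3a and OSMI against vehicle. These were the chemokine gene Cxcl12 (−2.31 with rhWnt3a and −1.89 with OSMI against vehicle, on the log2 scale), the adhesion gene Vcam1 (−0.93 and −1.89), and the collagen genes Col3a1 (−2.19) and Col1a1 (−1.31) with OSMI against vehicle. The fall of Col1a1 was not called without Veh 1, Veh 2, rhWnt3aOSMI 1 or rhWnt3aOSMI 2, and of the calls when OSMI was added (Col3a1 and Vcam1) 0 were left without rhWnt3aOSMI 2, 1 without rhWnt3aOSMI 1 or any rhWnt3a library, and 5 stromal markers were called without rhWnt3aOSMI 3. Hematopoietic markers summed to at most 1.98 and endothelial markers to at most 2.42 CPM in any library, and Emcn, the 1 endothelial marker tested, had 19, 34 and 22 counts with vehicle and at most 2 counts in any other library. Within groups, 54.8% of the variance lay along a single axis, with Veh 3, rhWnt3a 2 and rhWnt3aOSMI 1 and 2 on the first side of it and the other 5 libraries on the second. Each group thus held libraries of both sides, and Veh 3, rhWnt3a 2 and rhWnt3aOSMI 3 stood apart from the other replicates of their own groups. Values within each side, and without these 3 libraries, are given beside the results they bear on. Without these 3 libraries, the vehicle and rhWnt3a groups hold second-side libraries only and the OSMI group first-side libraries only. In that fit a difference of the OSMI group cannot be told apart from the side. Without rhWnt3aOSMI 3 alone, the OSMI group also holds first-side libraries only. Without Veh 3 alone the vehicle group, and without rhWnt3a 2 alone the rhWnt3a group, holds second-side libraries only.

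In outline, Pdk1 and Slc16a1 rose with rhWnt3a, and Pdk1 fell again when OSMI was present, to levels that overlapped vehicle. Pdk4 and Pdp1 were higher, and Pdk3 lower, with rhWnt3a and OSMI than with vehicle. Pdk2, Pdha1 and Slc2a1 were not called in any comparison, Slc16a3 was not called either, and Slc2a3 was near the floor of detection. A gene was called when edgeR's quasi-likelihood test gave a Benjamini-Hochberg adjusted p under 0.05 over the 14004 tested genes and a log2 fold change beyond 0.5. Of the 10 genes, 9 passed the filter on low counts and were tested, and 5 of those 9 were called in at least 1 comparison. Of the 9, 2 were called with rhWnt3a against vehicle (both higher), 1 with rhWnt3a and OSMI against rhWnt3a (lower), and 3 with rhWnt3a and OSMI against vehicle (2 higher and 1 lower). Over all tested genes the called share was 8.78% (2.92% higher and 5.86% lower) with rhWnt3a against vehicle, 4.74% (1.69% higher and 3.05% lower) with OSMI against rhWnt3a, and 14.2% (4.84% higher and 9.34% lower) with rhWnt3a and OSMI against vehicle. These shares are also the background for the counts called in the lists of other genes. The 3 comparisons share libraries, so they are not independent of each other.

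**Figure D1:**
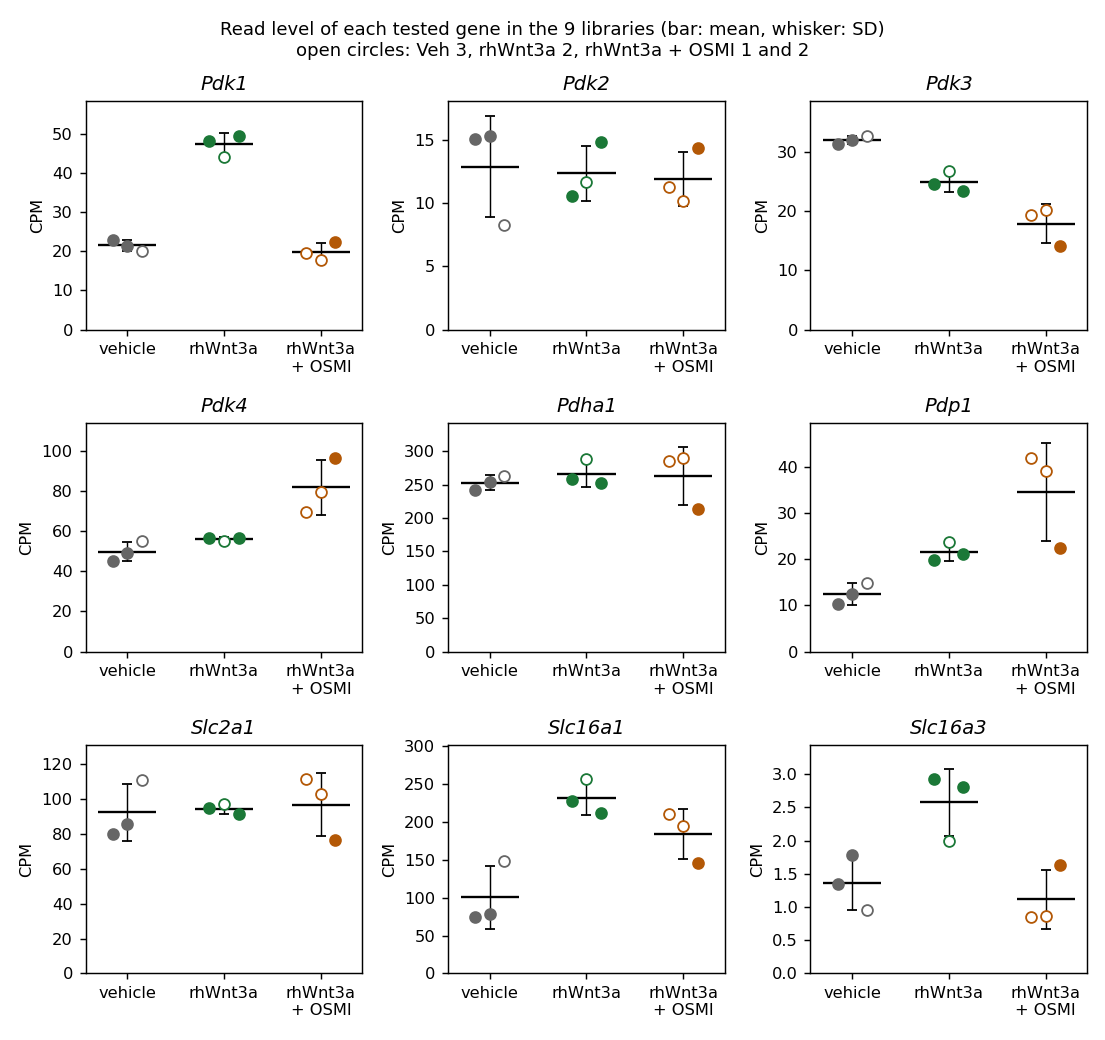
CPM (counts scaled to library size, vertical axes from 0) of the 9 tested genes in each library, by group, with a bar for the mean and a whisker for the SD of the 3 libraries. Pdk1 stood at 44.0 to 49.5 CPM with rhWnt3a and at 17.8 to 22.9 CPM in the other 6 libraries, while Pdk4 and Pdp1 were highest and Pdk3 lowest with rhWnt3a and OSMI.

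The promoters of the called genes are shown first, because Pdk1 and both monocarboxylate transporter genes belong to a route that hypoxia-inducible factor, a transcription factor stabilised when oxygen is low, is known to act on. Sequences are those of RefSeq on GRCm38.p6, which held 8 of the 10 genes (Pdp1 and Slc2a3 were not among them), and only bases upstream of the gene start are printed, 5′ to 3′ on the strand of the gene. Capitals mark ACGTG or GCGTG, the core of the hypoxia response element, read on both strands, so that CACGT and CACGC are the same letters on the other strand and CACGTG counts on both. The windows are chr2:71872974-71873223 for Pdk1, chrX:93832202-93832400 for Pdk3, chr6:5496310-5496528 for Pdk4 and chr3:104638414-104638663 for Slc16a1.
Pdk1: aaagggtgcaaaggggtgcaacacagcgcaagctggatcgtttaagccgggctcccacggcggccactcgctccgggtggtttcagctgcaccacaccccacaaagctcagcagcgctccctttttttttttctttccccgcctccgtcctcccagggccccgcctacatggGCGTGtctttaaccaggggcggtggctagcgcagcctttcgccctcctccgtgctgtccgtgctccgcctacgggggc
Pdk3: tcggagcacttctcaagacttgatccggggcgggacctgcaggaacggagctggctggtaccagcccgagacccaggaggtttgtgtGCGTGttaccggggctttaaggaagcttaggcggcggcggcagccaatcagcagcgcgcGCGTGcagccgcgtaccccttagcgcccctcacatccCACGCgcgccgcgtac
Pdk4: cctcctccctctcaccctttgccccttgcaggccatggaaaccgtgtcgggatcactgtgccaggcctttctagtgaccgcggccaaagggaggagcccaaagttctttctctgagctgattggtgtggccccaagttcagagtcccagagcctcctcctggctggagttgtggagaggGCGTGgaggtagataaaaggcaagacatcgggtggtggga
Slc16a1: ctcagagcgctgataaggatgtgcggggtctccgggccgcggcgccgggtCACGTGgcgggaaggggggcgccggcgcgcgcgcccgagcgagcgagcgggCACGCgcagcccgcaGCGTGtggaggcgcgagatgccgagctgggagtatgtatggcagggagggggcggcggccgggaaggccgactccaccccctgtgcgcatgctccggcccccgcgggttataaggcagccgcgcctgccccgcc
The core occurred 1 time in the 250 bases upstream of the RefSeq start of Pdk1, 4 times for Pdk3, 1 time for Pdk4 and 4 times for Slc16a1. It also occurred in the 250 bases of the other 4 genes, 2 times for Pdk2, 3 for Pdha1, 2 for Slc2a1 and 2 for Slc16a3. The RefSeq start of Slc16a3 lies 587 bases from the gene start used here, and its window falls inside the gene. Of 32851 promoter windows of this length, 38.6% held the core at least 1 time, and all 8 genes with an entry held it, called or not. The windows were not matched to these genes for base content or expression, so this is not a measure of enrichment. The letters CTTTGA or CTTTGT, the core bound by TCF and LEF factors, were found 1 time upstream of Pdk1 and not in the windows of the other 7 genes, against 27.6% of all windows. These are matches of letters in a window, not sites of binding.

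Pdk1 (ENSMUSG00000006494), on mm10 at chr2:71873224-71903858 on the plus strand, encodes the kinase isozyme best known as a target of hypoxia-inducible factor. Its level was 22.9, 21.4 and 20.2 CPM in the vehicle libraries, 48.2, 44.0 and 49.5 CPM with rhWnt3a, and 19.5, 17.8 and 22.4 CPM with rhWnt3a and OSMI. The rhWnt3a libraries lay far above all 6 others, and the vehicle and OSMI libraries overlapped. Pdk1 rose by 1.14 on the log2 scale (SE 0.13, 2.20-fold) with rhWnt3a, with an edgeR adjusted p of 0.000555. With OSMI added it fell by 1.25 on the log2 scale (SE 0.13), with an edgeR adjusted p of 0.00171. Against vehicle, the level with rhWnt3a and OSMI differed by −0.11 on the log2 scale (95% interval −0.41 to 0.18, edgeR adjusted p = 0.602). In bulk RNA such a difference can come from the level per cell or from the share of cells that express the gene, and these cannot be told apart. The rise and the fall were both called under each of the 16 other settings and subsets of libraries tried, with adjusted p-values of at most 0.00546 and 0.0181. Within the first and the second side of the axis the rise was 1.12 and 1.14, and the fall was −1.23 and −1.12 on the log2 scale.

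Pdk3 (ENSMUSG00000035232), on chrX:93764607-93832201 on the minus strand, encodes another of the kinase isozymes. Its level was 31.3, 32.0 and 32.7 CPM with vehicle, 24.5, 26.7 and 23.5 CPM with rhWnt3a, and 19.3, 20.1 and 14.1 CPM with rhWnt3a and OSMI. No library of one group overlapped another group, and rhWnt3aOSMI 3 was the lowest of all. Against vehicle Pdk3 fell by 0.84 on the log2 scale (SE 0.15, 0.557-fold) with rhWnt3a and OSMI, with an edgeR adjusted p of 0.00538. Each single step was smaller and did not pass the test, at −0.36 (edgeR adjusted p = 0.215) with rhWnt3a and −0.48 (edgeR adjusted p = 0.106) when OSMI was added.

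Pdk4 (ENSMUSG00000019577), on chr6:5483351-5496309 on the minus strand, encodes the isozyme best known for its induction in fasting and by PPAR factors. Its level was 45.2, 49.1 and 54.9 CPM with vehicle, 56.6, 55.1 and 56.6 CPM with rhWnt3a, and 69.5, 79.3 and 96.6 CPM with rhWnt3a and OSMI. The OSMI libraries lay above all others, whereas Veh 3 was only just below the lowest rhWnt3a library. Pdk4 rose by 0.72 on the log2 scale (SE 0.14, 1.65-fold) with rhWnt3a and OSMI against vehicle, with an edgeR adjusted p of 0.00878. The difference between OSMI and rhWnt3a alone was 0.54 (edgeR adjusted p = 0.0612), and DESeq2 called it (adjusted p = 0.0162). With rhWnt3a against vehicle it was 0.17 (95% interval −0.15 to 0.50, edgeR adjusted p = 0.611). Within the first side the difference from vehicle was 0.44 and within the second side 1.03 on the log2 scale.

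Pdk2 (ENSMUSG00000038967), on chr11:95026258-95041354 on the minus strand, encodes the most widely expressed of the isozymes. Its level was 15.1, 15.4 and 8.26 CPM with vehicle, 10.6, 11.7 and 14.8 CPM with rhWnt3a, and 11.3, 10.2 and 14.3 CPM with rhWnt3a and OSMI. The groups overlapped throughout, and Veh 3 was the lowest library. The log2 differences were −0.06 (95% interval −0.63 to 0.51) with rhWnt3a and −0.11 (95% interval −0.68 to 0.46) with rhWnt3a and OSMI against vehicle. Changes within these intervals are compatible with the values, and the smallest change that the test could call was not worked out. Without the 3 libraries that stood apart, Pdk2 was called lower with rhWnt3a and OSMI against vehicle (−0.54, edgeR adjusted p = 0.00779). That fit sets first-side OSMI libraries against second-side vehicle libraries. Within the first and the second side the difference was 0.38 and −0.09 on the log2 scale.

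Compared per length, the 4 kinase genes differed in level and their mixture shifted between groups. RPKM is the CPM divided by the gene length of the deposited table in kilobases, which allows levels of different genes to be set side by side. The summed RPKM of the 4 genes was 33.5 ± 0.629 (SD, n = 3) with vehicle, 35.7 ± 0.574 with rhWnt3a and 36.6 ± 3.53 with rhWnt3a and OSMI. Within that sum Pdk1 made up 8.26% ± 0.642 with vehicle, 17.0% ± 0.932 with rhWnt3a and 6.998% ± 0.585 with rhWnt3a and OSMI. The share of Pdk3 was 37.3% ± 0.669, 27.3% ± 2.1 and 19.3% ± 4.99 in the same order. Pdk4 held 42.3% ± 3.8, 44.8% ± 0.818 and 63.4% ± 4.44, and it was the largest part of the sum in all 9 libraries. Pdk2 stayed between 7.77% and 14.5% in all libraries. The ratio of Pdk4 to Pdk1 RPKM was 5.16 ± 0.827 with vehicle, 2.64 ± 0.126 with rhWnt3a and 9.11 ± 1.07 with rhWnt3a and OSMI, with no overlap between groups. These shares are descriptions without a test, and they depend on the lengths used. With the longest annotated transcript in place of the table's length, Pdk1 made up 10.6%, 21.4% and 9.35%, and Pdk3 (38.5%) came above Pdk4 (36.3%) in the vehicle group.

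**Figure D2:**
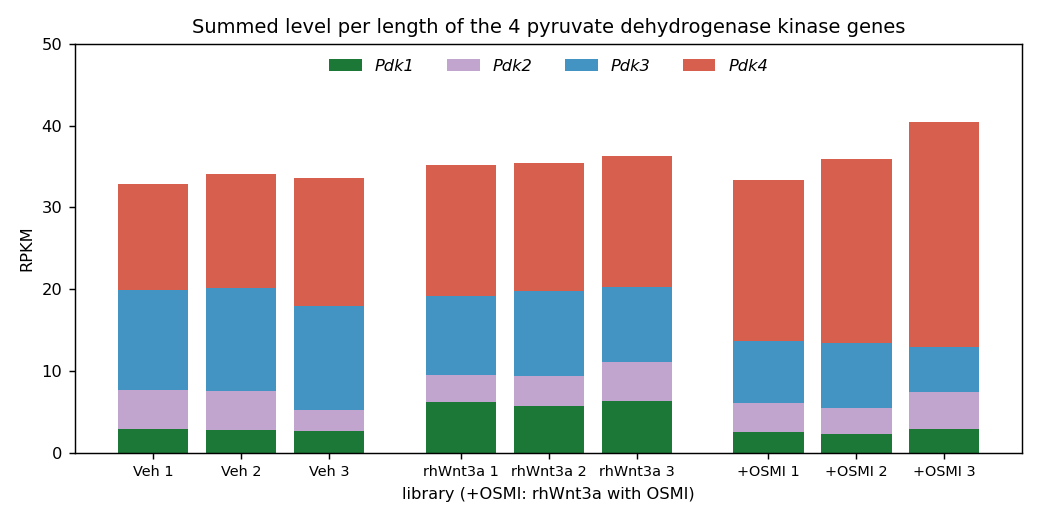
Stacked RPKM of Pdk1, Pdk2, Pdk3 and Pdk4 in each of the 9 libraries (vertical axis from 0, +OSMI meaning rhWnt3a with OSMI). The summed height ran from 32.8 to 40.4 RPKM, while the Pdk1 part was widest with rhWnt3a and the Pdk4 part widest with rhWnt3a and OSMI.

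Pdp1 (ENSMUSG00000049225), on chr4:11958184-11966452 on the minus strand, encodes the catalytic subunit of the phosphatase that opposes these kinases. Its level was 10.2, 12.4 and 14.9 CPM with vehicle, 19.7, 23.6 and 21.2 CPM with rhWnt3a, and 42.0, 39.0 and 22.3 CPM with rhWnt3a and OSMI. All 6 libraries with rhWnt3a lay above the vehicle libraries, and rhWnt3aOSMI 3 fell among the libraries with rhWnt3a alone. Pdp1 rose by 1.46 on the log2 scale (SE 0.24, 2.75-fold) with rhWnt3a and OSMI against vehicle, with an edgeR adjusted p of 0.00321, and this call was kept under each of the 16 other settings. With rhWnt3a alone the difference from vehicle was 0.78 (SE 0.24, edgeR adjusted p = 0.0806), and with OSMI added it was 0.68 (SE 0.24, edgeR adjusted p = 0.130). Without rhWnt3aOSMI 3 both of these steps were called, at 0.78 (edgeR adjusted p = 0.0118) and 0.91 (edgeR adjusted p = 0.0166). The first step was also called by DESeq2 (0.77, adjusted p = 0.0324) and by edgeR with the 6 libraries of its groups (adjusted p = 0.0268), and both steps were called by edgeR without a count filter (adjusted p = 0.0143 and 0.0368) and without the 3 libraries that stood apart. Within the second side, where that library lies, the OSMI step was 0.13, against 0.78 within the first side. Per length, Pdp1 stood at 0.0828 ± 0.0149 (SD, n = 3) of the summed kinase RPKM with vehicle, 0.134 ± 0.0123 with rhWnt3a and 0.214 ± 0.0814 with rhWnt3a and OSMI.

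Pdha1 (ENSMUSG00000031299), on chrX:160122209-160138413 on the minus strand, encodes the subunit that the kinases phosphorylate. Its level was 241.5, 254.7 and 263.1 CPM with vehicle, 258.8, 288.1 and 252.2 CPM with rhWnt3a, and 285.5, 290.8 and 213.3 CPM with rhWnt3a and OSMI. The groups overlapped, with rhWnt3aOSMI 3 the lowest library. The log2 difference from vehicle was 0.07 (95% interval −0.26 to 0.40, edgeR adjusted p = 0.871) with rhWnt3a and 0.06 (95% interval −0.27 to 0.39, edgeR adjusted p = 0.823) with rhWnt3a and OSMI. On the annotation used, 16.15% of its exon bases are overlapped by Map3k15 on the opposite strand, and the strand setting of the counting is not given in the sources used here, so reads there cannot be assigned to either gene.

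Slc2a1 (ENSMUSG00000028645), on chr4:119108711-119137983 on the plus strand, encodes GLUT1, the glucose transporter of most cell types. Its level was 80.1, 86.0 and 110.7 CPM with vehicle, 94.6, 97.3 and 91.6 CPM with rhWnt3a, and 111.2, 102.7 and 76.3 CPM with rhWnt3a and OSMI. Groups overlapped in every comparison, and the highest and the lowest library were both in the OSMI group. The log2 difference from vehicle was 0.03 (95% interval −0.35 to 0.42, edgeR adjusted p = 0.950) with rhWnt3a and 0.07 (95% interval −0.31 to 0.45, edgeR adjusted p = 0.815) with rhWnt3a and OSMI. Slc2a3 (ENSMUSG00000003153) had 1, 0 and 4 counts in the vehicle libraries and 0 counts in each of the 6 libraries with rhWnt3a. A count of 0 allows a level of up to 0.171 to 0.186 CPM at this depth, for counting error only, so a difference of Slc2a3 was not detectable.

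Slc16a1 (ENSMUSG00000032902), on chr3:104638668-104658462 on the plus strand, encodes MCT1, the widely expressed carrier of lactate. Its level was 73.9, 78.4 and 148.6 CPM with vehicle, 228.1, 255.9 and 211.0 CPM with rhWnt3a, and 210.7, 194.9 and 146.2 CPM with rhWnt3a and OSMI. The rhWnt3a libraries lay above all others, by a narrow margin over rhWnt3aOSMI 1, while Veh 3 reached the level of rhWnt3aOSMI 3. Slc16a1 rose by 1.21 on the log2 scale (SE 0.26, 2.31-fold) with rhWnt3a, with an edgeR adjusted p of 0.0181. The adjusted p rose above the threshold without Veh 1 (0.0731), without Veh 2 (0.0832) or without rhWnt3a 1 (0.0518), at log2 differences of 1.03, 1.08 and 1.25. Against rhWnt3a, the difference with OSMI was −0.33 (95% interval −0.91 to 0.25, edgeR adjusted p = 0.462). Against vehicle, the difference with rhWnt3a and OSMI was 0.87 (SE 0.26, edgeR adjusted p = 0.0503), and it was called under 8 of the 16 alternatives. These were DESeq2 (0.87, adjusted p = 0.0123), median-of-ratios scaling (adjusted p = 0.0446), no count filter (adjusted p = 0.00207), at least 10 counts in every library (adjusted p = 0.0425), and the fits without the 3 libraries that stood apart, without Veh 3 (1.27, edgeR adjusted p = 0.00248), without rhWnt3a 2 (0.89, edgeR adjusted p = 0.046) and without rhWnt3aOSMI 3 (1.02, edgeR adjusted p = 0.0379). In the fit without Veh 3, the vehicle group holds second-side libraries only, whereas the OSMI group holds libraries of both sides. Slc16a1 differed between the sides of the axis, by 0.96, 0.22 and 0.47 on the log2 scale (first minus second) within the vehicle, rhWnt3a and OSMI groups. Within the first side the rise with rhWnt3a was 0.78 and within the second side 1.53. The difference of the OSMI group from vehicle was 0.45 within the first side and 0.94 within the second.

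Slc16a3 (ENSMUSG00000025161), on chr11:120948480-120960868 on the plus strand, encodes MCT4, the carrier typical of cells that export much lactate. It had 22, 28 and 17 counts in the vehicle libraries, 48, 35 and 47 counts with rhWnt3a, and 14, 15 and 28 counts when OSMI was added, which is 0.847 to 2.92 CPM. The rhWnt3a libraries were above all others, and the vehicle and OSMI libraries overlapped, the same order of groups as for Pdk1 at a far lower level. The differences of 0.92 with rhWnt3a (SE 0.35, edgeR adjusted p = 0.167) and −1.20 when OSMI was added (SE 0.36, edgeR adjusted p = 0.0873) did not pass the test. Without rhWnt3aOSMI 3 the second of these was called, at −1.58 (edgeR adjusted p = 0.0454), and DESeq2 called it with all libraries (−1.20, adjusted p = 0.047). Without the 3 libraries that stood apart both were called, at 0.84 (edgeR adjusted p = 0.0498) and −1.74 (edgeR adjusted p = 0.000899). For the OSMI step that fit sets first-side against second-side libraries, so treatment and side cannot be told apart in it. Within the first and the second side the OSMI step was −1.12 and −0.77, and the difference with rhWnt3a was 0.97 and 0.84.

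**Figure D3:**
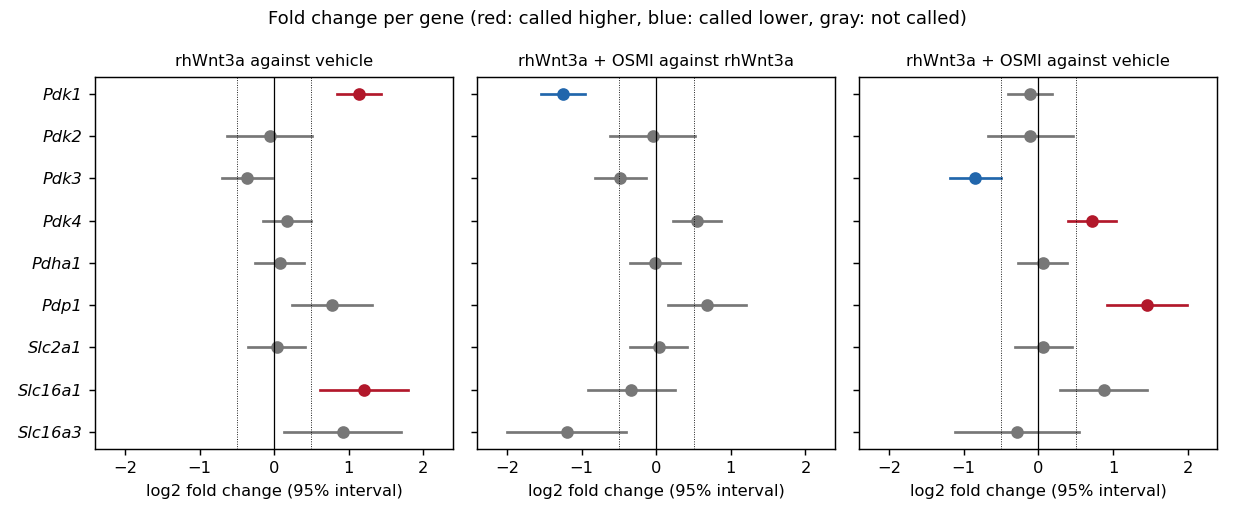
Log2 fold change (points) with its 95% interval (lines) for the 9 tested genes in the 3 comparisons, with dotted lines at the fold threshold of 0.5 either way. Pdk1 is called in opposite directions in the first and second panels, and Pdk3, Pdk4 and Pdp1 are called only in the third, with rhWnt3a and OSMI against vehicle.

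Counted by overlap alone, the 3 rhWnt3a libraries lay above the 3 vehicle libraries for 5 of the 9 genes (Pdk1, Pdk4, Pdp1, Slc16a1 and Slc16a3) and below them for Pdk3, against 12.2% and 14.2% of all tested genes. With OSMI against rhWnt3a, Pdk4 lay above and Pdk1, Pdk3, Slc16a1 and Slc16a3 lay below without overlap, against 16.7% and 17% of all tested genes. With rhWnt3a and OSMI against vehicle, Pdk4 and Pdp1 lay above and Pdk3 below, against 19.3% and 19.5%. For a single gene, an exact permutation test of 3 against 3 libraries cannot give a p below 0.1, so the calls above rest on the fit across all genes. The median log2 difference of the 9 genes was 0.17, −0.05 and 0.06 in the 3 comparisons, beside 0.04, −0.01 and −0.01 over all tested genes.

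Ordered by RPKM, Pdha1 was the highest of the 10 genes in every group, at 67.8 ± 2.92 (SD, n = 3) with vehicle, 71.3 ± 5.12 with rhWnt3a and 70.5 ± 11.6 with rhWnt3a and OSMI. With vehicle it was followed by Slc2a1 (26.3 ± 4.63) and Slc16a1 (22.7 ± 9.47), whose libraries overlapped, and then by Pdk4 (14.2 ± 1.38), Pdk3 (12.5 ± 0.265), Pdk2 (4.08 ± 1.27), Pdp1 (2.78 ± 0.525) and Pdk1 (2.76 ± 0.175). The last 3 of these could not be ordered, since Pdk2 overlapped Pdp1 and Pdp1 overlapped Pdk1. With rhWnt3a, Slc16a1 (52.4 ± 5.12) stood above Slc2a1 (27.0 ± 0.818) in every library, and Pdk1 (6.07 ± 0.369) stood above Pdp1 (4.77 ± 0.435) and Pdk2 (3.91 ± 0.699). With rhWnt3a and OSMI, Slc16a1 (41.6 ± 7.6) was still above Slc2a1 (27.6 ± 5.19), Pdk4 (23.3 ± 3.9) overlapped Slc2a1, Pdp1 (7.64 ± 2.35) overlapped Pdk3 (6.96 ± 1.29), and Pdk1 (2.56 ± 0.298) was the lowest of the kinases. Slc16a3 did not exceed 0.549 RPKM in any library, and the ratio of Slc16a1 to Slc16a3 RPKM ranged from 52.8 to 299 over the 9 libraries.

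**Figure D4:**
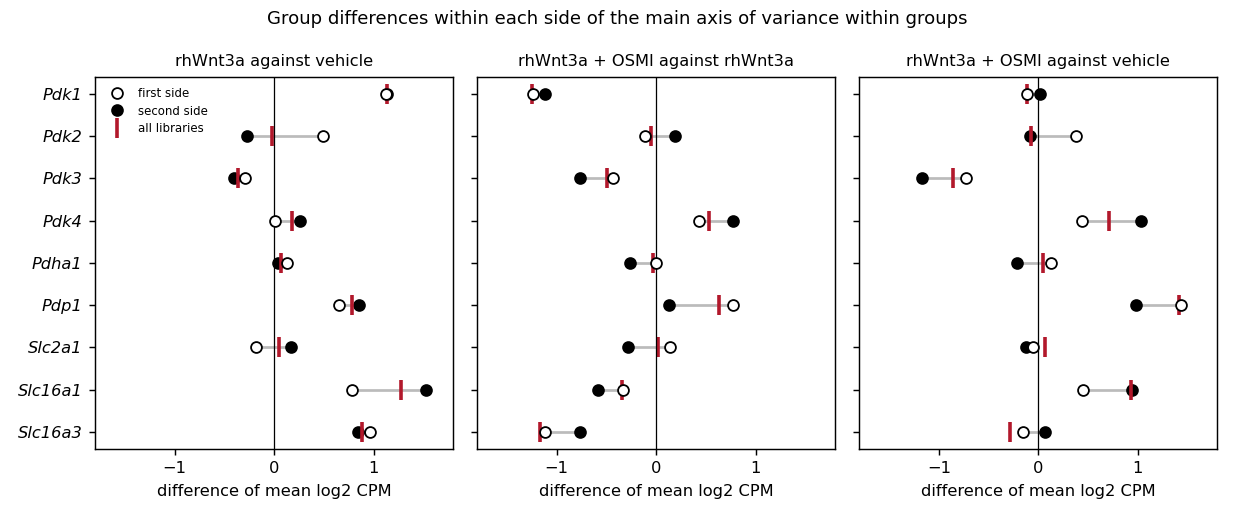
Difference of the mean log2 CPM for each gene and comparison, computed within the first side (open circles) and the second side (filled circles) of the main axis of variance within groups, with all libraries as a red bar. The values of Pdk1 nearly coincide in the first 2 panels, those of Slc16a1 spread from 0.78 to 1.53 with rhWnt3a against vehicle, and those of Pdk2 have opposite signs in every panel.

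Because each side holds libraries of every group, group differences were also taken within a side, with 1 or 2 libraries a group and therefore no test. For the 5 called genes, every called difference had the same sign on the first and on the second side. Pdk3 against vehicle with rhWnt3a and OSMI was −0.73 and −1.17, and Pdp1 was 1.43 and 0.98 on the log2 scale. Slc2a1 with rhWnt3a against vehicle was −0.19 within the first side and 0.17 within the second, and Pdk2 was 0.49 and −0.28. What separates the sides is not on the labels, and its part in these results was not tested beyond these values.

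The other genes of the route were taken as 5 lists of 49 genes, of which 32 were tested and the other 17 had at most 19 counts in any library. With rhWnt3a against vehicle, 1 was called higher and 3 lower, with OSMI against rhWnt3a 4 were called lower, and with rhWnt3a and OSMI against vehicle 2 were called higher and 7 lower. Over all tested genes the called share was 8.78%, 4.74% and 14.2% in the same order. The median log2 difference of the 32 was 0.01, −0.18 and −0.23, beside 0.04, −0.01 and −0.01 over all tested genes. None of the 6 tested other genes of the pyruvate dehydrogenase complex (Pdhb, Dlat, Dld, Pdhx, Pdp2 and Pdpr) was called in any comparison by edgeR, by DESeq2 or at an unadjusted p under 0.05 with the same fold threshold. Their log2 differences ran from −0.48 (Dld, OSMI against rhWnt3a) to 0.46 (Pdpr, in both comparisons of the OSMI group). Pdpr was at 24.4 CPM in Veh 3 and 23.7 CPM in rhWnt3a 2, and at 64.9 to 76.5 CPM in every other library.

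Among the enzymes that use pyruvate otherwise, Ldha, the lactate dehydrogenase subunit that favours the making of lactate, was at 392.7, 409.4 and 564.6 CPM with vehicle, 709.3, 979 and 727.3 CPM with rhWnt3a, and 397.8, 382.2 and 226.3 CPM with rhWnt3a and OSMI. The rhWnt3a libraries were above all others. Ldha fell by 1.26 on the log2 scale when OSMI was added (edgeR adjusted p = 0.0219), and its difference with rhWnt3a was 0.82 (edgeR adjusted p = 0.0732). DESeq2 called that difference (0.81, adjusted p = 0.0167), as did edgeR without a count filter (adjusted p = 0.00719), with the 6 libraries of the 2 groups (adjusted p = 0.0401), without Veh 3 (adjusted p = 0.0456), without rhWnt3aOSMI 3 (adjusted p = 0.0189) and without the 3 libraries that stood apart. The fall was no longer called without rhWnt3a 1, rhWnt3a 2, rhWnt3a 3, rhWnt3aOSMI 1 or rhWnt3aOSMI 2, at edgeR adjusted p-values of 0.0511, 0.0667, 0.0615, 0.0515 and 0.0639. It was also lost with only the 6 libraries of its 2 groups (edgeR adjusted p = 0.0527) and with the replicate number as a block (edgeR adjusted p = 0.0718). Pcx, the pyruvate carboxylase that makes oxaloacetate, was at 179, 200.8 and 141.2 CPM with vehicle, 276.1, 261.9 and 276.4 CPM with rhWnt3a, and 366.4, 372.9 and 564.2 CPM with rhWnt3a and OSMI. The 3 groups did not overlap, and Pcx rose by 1.32 with rhWnt3a and OSMI against vehicle (edgeR adjusted p = 0.00197), in 2 steps of 0.64 (edgeR adjusted p = 0.0787) and 0.68 (edgeR adjusted p = 0.0817), both of which DESeq2 called (adjusted p = 0.0479 and 0.0253). Ldhb, the other main lactate dehydrogenase subunit, fell by 1.07 against vehicle (edgeR adjusted p = 0.00975), a value that is uncertain because 76.8% of its transcript is nearly identical to Gm5514. Me3, a mitochondrial malic enzyme, fell by 0.93 in the same comparison (edgeR adjusted p = 0.0129, and 0.0533 without Veh 2).

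Txnip, an arrestin that promotes the uptake of GLUT1 from the membrane into the cell, was at 214.8 ± 11.8 CPM (SD, n = 3) with vehicle, 156.2 ± 22.7 with rhWnt3a and 76.7 ± 7.58 with rhWnt3a and OSMI. It fell by 1.03 on the log2 scale when OSMI was added (edgeR adjusted p = 0.0052) and by 1.49 against vehicle (edgeR adjusted p = 0.000174), and 19.4% of its exon bases are overlapped by Gm15441 on the opposite strand. Basigin (Bsg), the chaperone that brings MCT1 and MCT4 to the membrane, differed by −0.17 with rhWnt3a (edgeR adjusted p = 0.787) and by −0.72 with rhWnt3a and OSMI (edgeR adjusted p = 0.0684) against vehicle, the second of which DESeq2 called (adjusted p = 0.0195).

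Other transporters were low but several changed. Slc16a7, which encodes MCT2, was at 8.31, 5.54 and 5.09 CPM with vehicle, 1.64, 0.682 and 1.38 CPM with rhWnt3a, and 0.181, 0.689 and 0.641 CPM with rhWnt3a and OSMI. It fell by 2.35 with rhWnt3a (edgeR adjusted p = 0.00553) and by 3.62 with rhWnt3a and OSMI (edgeR adjusted p = 0.000785) against vehicle, opposite in direction to Slc16a1. Slc16a4, which encodes MCT5, fell by 1.42 (edgeR adjusted p = 0.00635) and 1.29 (edgeR adjusted p = 0.0078) in these 2 comparisons. Slc16a9 fell by 1.65 with rhWnt3a and OSMI against vehicle (edgeR adjusted p = 0.00135) and by 1.04 against rhWnt3a (edgeR adjusted p = 0.0358), with 23.52% of its exon bases overlapped by 2 genes on the opposite strand. Among fits that left out 1 library, the smaller of these falls was called only without Veh 3, and otherwise had an edgeR adjusted p of 0.0558 (without Veh 1) to 0.132 (without rhWnt3a 3). Slc2a6, an intracellular member of the glucose transporter family, fell by 1.15 (edgeR adjusted p = 0.00362) and 0.87 (edgeR adjusted p = 0.0111) against vehicle without and with OSMI, the second of which had an adjusted p of 0.0517 without Veh 1, 0.0533 without Veh 2 and 0.0521 without rhWnt3aOSMI 2. Slc2a13, a proton-coupled transporter of myo-inositol, had 2, 2 and 0 counts with vehicle, 45, 42 and 50 counts with rhWnt3a, and 6, 8 and 8 counts when OSMI was added. It was called higher with rhWnt3a (edgeR adjusted p = 0.000318) and lower when OSMI was added (edgeR adjusted p = 0.00775). The OSMI group was called higher than vehicle (edgeR adjusted p = 0.0328), a call that was kept without rhWnt3a 2 and lost without each of the other 8 libraries (adjusted p of 0.0507 to 0.0806). No fold is given against the vehicle group, which is at or under the floor of 3 counts in each library.

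**Figure D5:**
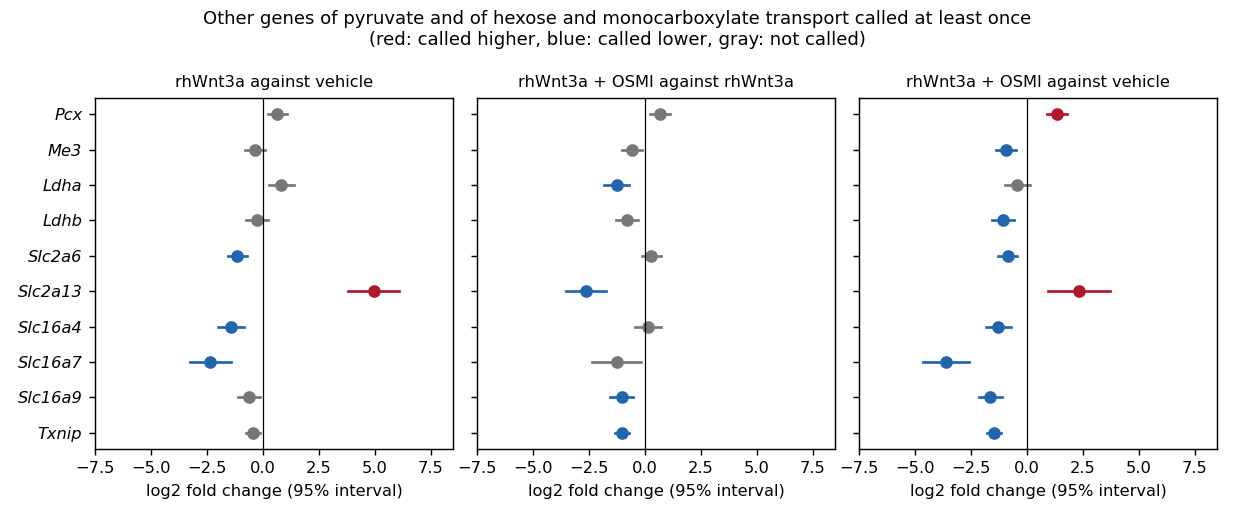
Log2 fold change (points) with its 95% interval (lines) of the 10 other genes of the route that were called at least once, in the 3 comparisons. The points of Ldha and Slc2a13 lie above 0 in the first panel and below it in the second, Pcx is called higher in the third, and the other 7 lie below 0 in the third panel. The points of Slc2a13 against vehicle rest on at most 2 counts per vehicle library.

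Pdk1, Slc2a1 and Slc16a3 are textbook targets of hypoxia-inducible factor, so further targets outside glycolysis were read beside them. Of 17 such genes, all tested, 6 were called higher and 1 lower with rhWnt3a (median log2 difference 0.36, against 0.04 over all tested genes). The 6 became 1 without Veh 1, 2 without Veh 2 and 3 without rhWnt3a 2 or rhWnt3a 3. When OSMI was added 8 were called lower (median −0.47), and with rhWnt3a and OSMI against vehicle 2 were called lower (median −0.33). The 8 became 3 without rhWnt3a 3 or rhWnt3aOSMI 2, 4 without rhWnt3a 2, and 5 without rhWnt3a 1 or rhWnt3aOSMI 1, and the 2 became 0 without rhWnt3aOSMI 1 and 1 without any other library than Veh 3 or rhWnt3a 2. These counts thus rest on single libraries, controls included. Bnip3 rose by 0.89 with rhWnt3a (edgeR adjusted p = 0.00515) and fell by 1.40 when OSMI was added (edgeR adjusted p = 0.00182). Both of these calls were kept without any single library. Its call lower with rhWnt3a and OSMI against vehicle (−0.52, edgeR adjusted p = 0.0469) was lost without each of them. Ankrd37, an ankyrin repeat protein, had the largest difference of the list and fell by 2.36 when OSMI was added (edgeR adjusted p = 0.00826). Higd1a, a mitochondrial protein induced by hypoxia, rose by 1.10 with rhWnt3a (edgeR adjusted p = 0.0225) and fell by 1.60 when OSMI was added (edgeR adjusted p = 0.00937). Its rise was not called without Veh 1 (adjusted p = 0.0937), Veh 2 (0.104) or rhWnt3a 2 (0.058). Fam162a, another mitochondrial protein of the list, rose by 1.20 (edgeR adjusted p = 0.0496) and fell by 1.59 (edgeR adjusted p = 0.0274), and Egln3, an oxygen-sensing prolyl hydroxylase, fell by 1.62 (edgeR adjusted p = 0.0283) in the second step. Without single libraries the edgeR adjusted p of these 3 differences reached 0.174 (without Veh 2), 0.0793 (without rhWnt3a 2) and 0.112 (without rhWnt3aOSMI 1). Car9, the membrane carbonic anhydrase, was the 1 target called lower with rhWnt3a, by 1.56 (edgeR adjusted p = 0.0355, and up to 0.15 without Veh 2), the opposite direction to Pdk1.

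Pdk4 is a textbook target of PPAR factors, and 11 of 15 other PPAR targets of fatty acid oxidation were tested. Acot1, an acyl-CoA thioesterase, was the only one that edgeR called with all libraries and the main count filter. It was lower by 2.35 when OSMI was added (edgeR adjusted p = 0.0151) and by 2.25 against vehicle (edgeR adjusted p = 0.00694), the opposite direction to Pdk4. The first of these calls was lost without rhWnt3a 2, rhWnt3a 3 or rhWnt3aOSMI 2 (edgeR adjusted p = 0.0545, 0.0558 and 0.0719). DESeq2 called Plin2, a lipid droplet protein, lower as well when OSMI was added (−0.72, adjusted p = 0.0324). Without a count filter, edgeR also called Plin2 lower in that step (−0.71, edgeR adjusted p = 0.0233). The same setting called Angptl4 lower with rhWnt3a and OSMI against vehicle (−0.61, edgeR adjusted p = 0.0462). Cpt1a, which lets fatty acids into mitochondria, differed by 0.57 with rhWnt3a and OSMI against vehicle (edgeR adjusted p = 0.0939, and 0.0473 without rhWnt3a 2). With rhWnt3a against vehicle edgeR called 0 of the 11, as did DESeq2 and an unadjusted p under 0.05, while Acadm, a dehydrogenase of fatty acid oxidation, was called lower without rhWnt3a 2 (−0.61, edgeR adjusted p = 0.0146).

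Wnt targets and cell division differed between the same groups. Of 6 tested Wnt targets, 3 were called higher with rhWnt3a. These were Axin2 (log2 difference 5.06, edgeR adjusted p = 3.67e-05), Lef1 (2.28, edgeR adjusted p = 0.00842) and Tcf7, which had 1, 1 and 4 counts with vehicle and 13, 11 and 19 counts with rhWnt3a (log2 difference 2.75, edgeR adjusted p = 0.013). The call of Tcf7 was lost without Veh 1, Veh 2 or rhWnt3a 3 (adjusted p of 0.0645 to 0.0672). When OSMI was added edgeR called 0 of the 6 (median log2 difference −0.71, 2 positive and 4 negative). DESeq2 called Lef1 lower (−1.34, adjusted p = 0.0459) and Ccnd1 higher (0.58, adjusted p = 0.0282) in that step. With rhWnt3a and OSMI against vehicle all 6 differences were positive (median 0.90), and 1 was called higher. Of 20 mitosis genes, 9 were called lower with rhWnt3a and 10 higher when OSMI was added, and all 20 had a difference in these directions. The 9 became 1 without Veh 1, 2 without Veh 2, rhWnt3a 1 or rhWnt3a 3, 4 without rhWnt3a 2 and 14 without rhWnt3aOSMI 3. The 10 became 3 without rhWnt3a 3, 5 without any other library with rhWnt3a but rhWnt3aOSMI 3, and 17 without rhWnt3aOSMI 3, and DESeq2 called 12 and 16. The largest called differences were those of Nek2 (2.30), Mki67 (2.22), Cep55 (2.12) and Cenpf (2.11) when OSMI was added, of which Cep55 had an edgeR adjusted p of 0.0489. Their summed level was 125 to 158.1 CPM with vehicle, 61.4 to 68.1 CPM with rhWnt3a and 103.6 to 209.4 CPM with rhWnt3a and OSMI. Adipocyte markers, of which 3 of 6 were tested and the other 3 had 3 counts or fewer in every library, summed to 43.6 to 52.0 CPM with vehicle, 10.4 to 13.1 CPM with rhWnt3a and 11.95 to 14.9 CPM with rhWnt3a and OSMI. All 3 were called lower with rhWnt3a against vehicle, at −2.49 for Fabp4 (edgeR adjusted p = 0.000972), −1.73 for Pparg (edgeR adjusted p = 8.8e-05) and −2.58 for Lpl (edgeR adjusted p = 0.0131), which had 2 to 26 counts and was not called without Veh 1 (adjusted p = 0.0609) or rhWnt3a 3 (0.0736). When OSMI was added edgeR called 1 of the 3, Pparg, which was higher. That call was lost without Veh 2, any rhWnt3a library, rhWnt3aOSMI 1 or rhWnt3aOSMI 2 (edgeR adjusted p of 0.0724 to 0.144). Fabp4 was called lower in that step by DESeq2 (−1.07, adjusted p = 0.0266). With rhWnt3a and OSMI against vehicle edgeR called all 3 lower. The part of these differences in the values of Pdk1, Slc16a1 and the other genes described was not tested.

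For each called gene, the 3 genes most like it were sought by Pearson correlation of log2 CPM over the 9 libraries among 11434 genes with a mean log2 CPM above 1. Pdk1 was most like Wnt9a (r = 0.992), Tmem64 (0.989) and Ctns (0.986). The genes nearest to Pdk3 were Casp8 (r = 0.992), Emp3 (0.992) and Plp2 (0.991), and those nearest to Pdk4 were Zbtb18 (r = 0.989), Xpc (0.987) and Taf3 (0.986). Pdp1 was most like Pgd (r = 0.99), an enzyme of the pentose phosphate pathway, followed by Mul1 (0.979) and Slc48a1 (0.976). Slc16a1 was most like Bend6 (r = 0.993), Cstf1 (0.988) and Gpat4 (0.978). These correlations describe 9 libraries that fall into 3 groups, each the best of 11434, and carry no test.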

How the data were processed

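RNA of 9 ST2 libraries (3 per group) was poly-T selected and sequenced by Novogene. The submitters' processing notes name CASAVA, fastp, HISAT2 2.0.5, featureCounts 1.5.0-p3 and mm10, and the annotation and strand setting are not given in the sources used here. The authors deposited whole-number counts of reads per gene without normalization, in a table of 43 columns from which the 9 count columns and the gene length, in bases (a deposited annotation value of another kind), were used. Its 9 FPKM columns and 15 columns of group means, fold changes and p-values of the authors' own comparisons were not used.

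The tests used edgeR 4.0.16 under R 4.3.3 (filterByExpr, TMM, glmQLFit on the 3 groups with all 9 libraries and no covariate, two-sided glmQLFTest, Benjamini-Hochberg adjustment over 14004 genes within a comparison). The common dispersion was 0.0452. The study's methods compared pairs of groups with DESeq2, which was run here as an alternative (version 1.42.0). Steps were tested on simulated counts. CPM use TMM-scaled totals. Totals of 16135898 to 17583945 counts make counting error small for the tested genes described other than Slc16a3. Counting error is not small for genes of other lists with few counts (Slc2a13, Slc16a7, Ankrd37, Egln3, Acot1, Tcf7, Lpl). Floors cover counting error only. The intervals rest on the standard error of the edgeR fit, so they also carry the spread between these libraries. Near-identical transcripts (97% over 100 bases) and overlapping exons were sought with BLAST 2.17.0 in GENCODE M21, in which all 10 genes have the start and end of the table. Where a symbol belonged to several genes, the one with more counts was taken.

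Groups come from the sample titles. The genes described, the 13 lists of other genes and the alternatives were chosen with earlier results of these data known. Named are all 10 genes, every called gene of the 5 lists of the route, up to 4 called genes of each other list by size of change, and the 3 genes most correlated with each called gene. Bnip3, Car9, Ccnd1, Bsg, Cpt1a, Dld, Pdpr, Plin2, Angptl4 and Acadm were added after their values were seen. Alternatives were other scaling, DESeq2, other count filters, only the 6 libraries compared, the replicate number as a block, unadjusted p, no fold threshold, leaving out each library and leaving out the 3 libraries that stood apart. The sides of the axis and the longest transcript as length were added after seeing the data.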

Additional observations from a re-analysis of the deposited data

How the results depend on the processing

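Over 16 alternatives for each of 9 genes in 3 comparisons, 386 of 432 log2 differences kept their direction and their side of the threshold, 22 became called, 4 lost a call (all of them the rise of Slc16a1) and 20 changed sign, none of them of a called gene. The called differences of Pdk1, Pdk3, Pdk4 and Pdp1 were kept under all 16. The cause was not tested for any change below. Comparisons of the OSMI group without the 3 libraries apart also set the first side of the axis against the second.

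Of the 9 genes, the number called with rhWnt3a against vehicle (2) was 1 with the replicate block, 4 at unadjusted p and 4 without the 3 libraries apart, and 1 (without Veh 1, Veh 2 or rhWnt3a 1) to 3 without single libraries. With OSMI against rhWnt3a it was 3 by DESeq2, 2 without a count filter, 4 at unadjusted p and 3 without the 3 libraries apart (1 to 3 without single libraries, the 3 without rhWnt3aOSMI 3), in place of 1. With rhWnt3a and OSMI against vehicle it was 5 without the 3 libraries apart and 3 to 4 without single libraries, in place of 3. Over all genes, the calls in the 3 comparisons (1230, 664 and 1986) were 2155, 2271 and 3186 at unadjusted p, 2557, 1789 and 3351 without the 3 libraries apart, and 716 to 1506, 203 to 764 and 1218 to 2328 without single libraries. The lower counts came without Veh 1 (761), Veh 2 (717), rhWnt3a 1 (716) or rhWnt3a 3 (724) in the first comparison, without Veh 2 (370), any rhWnt3a library (217 to 280), rhWnt3aOSMI 1 (240) or rhWnt3aOSMI 2 (203) in the second, and without Veh 1 (1218), Veh 2 (1237) or rhWnt3aOSMI 1 (1308) in the third. The second of these counts was 1232 by DESeq2, 1481 without a count filter and 345 with 6 libraries. For the other genes of the route (4, 4 and 9 called), the first count was 2 at 10 counts in every library, 8 at unadjusted p and 9 without the 3 libraries apart, and the second was 2 with 6 libraries and 9 at unadjusted p. Without single libraries the 3 counts were 4 to 6, 2 to 4 (2 without any rhWnt3a library, rhWnt3aOSMI 1 or rhWnt3aOSMI 2) and 6 to 10.

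Whether the replicate numbers pair the libraries is not on the labels. Deviations of same-numbered libraries correlated at −0.49 to 0.439. These correlations cannot decide it, because the sides of the main axis within groups fall at different replicate numbers. Under the replicate block, 809, 233 and 1297 genes were called in the 3 comparisons, of the 9 genes 1, 1 and 3, and of the other genes of the route 4, 2 and 8. The rise of Slc16a1 was 1.23 (edgeR adjusted p = 0.0575) with the block.

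Signs changed only in differences near 0. Pdk2 ran from −0.2976 to 0.1026 (rhWnt3a against vehicle), from −0.1985 to 0.1031 (OSMI against rhWnt3a) and from −0.3464 to 0.0772 (OSMI group against vehicle) when single libraries were left out. In the same order, Slc2a1 ran from −0.0586 to 0.1893, from −0.05 to 0.1799 and from −0.0140 to 0.2221. Pdha1 with OSMI against rhWnt3a ran from −0.0663 to 0.1149 without single libraries, and was 0.0026 at 10 counts in every library, 0.0005 with 6 libraries and 0.1691 without the 3 libraries apart (edgeR adjusted p = 0.0496, under the fold threshold).

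With 3 libraries a group, small differences such as the steps of Pdk3 and Pdp1 are near the limit of the test, and at 14 to 48 counts Slc16a3 carries counting error beside it. No scaling moved the median of all genes by 0.1 on the log2 scale.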
